A study of Homo sapiens with 18 samples.

Results

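The genes described here are 39 members of the sterol and fatty acid synthesis program, out of 56303 genes in the deposited count table of the series. Members were chosen by name, as genes known to be controlled by the sterol regulatory element-binding proteins (SREBPs) or to control them. The rule uses names and no measured value, but earlier results of these data were known when it was written. The members comprise 8 enzymes of the mevalonate pathway, 12 enzymes from squalene to cholesterol, 5 regulators, 2 genes of sterol transport and phosphatidate metabolism, 4 enzymes of fatty acid synthesis, and 8 enzymes that desaturate, elongate or activate fatty acids. All 39 were found in the table and all 39 passed the filter on low counts in each fit, so every member was tested in every comparison.

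SREBPs are transcription factors made as inactive precursors in the membrane of the endoplasmic reticulum. When sterols are scarce, the escort protein SCAP carries them to the Golgi, where proteolysis frees the active factor; when sterols are plentiful, the INSIG proteins hold SCAP back. The active factors raise the transcription of cholesterol and fatty acid enzymes, and of INSIG1 and the SREBP genes themselves. SREBF2 is best known for driving cholesterol genes and SREBF1 for driving fatty acid genes, and tumour cells often depend on this program to build membranes.

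The series treated 2 human ovarian cancer cell lines, SKOV3 and A2780, with daphnetin, a plant dihydroxycoumarin, and its title asks about ferroptosis, a cell death driven by lipid peroxidation, and the enzyme NQO1. RNA was sequenced from SKOV3 cells given DMSO (the solvent), daphnetin at 20 mg/L or daphnetin at 40 mg/L, and from A2780 cells given the same 3 treatments, with 3 libraries in each of the 6 groups. No genetic change is labelled in either line, and per the labels the lines were grown in different media with different serum shares. The duration of treatment is not given in the sources used here, and no label says that the libraries came from separate cultures, so p-values measure the spread between libraries, which may be technical.

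Libraries held 35105152 to 44132931 counts in SKOV3 and 30016475 to 37220879 in A2780. Members took 0.14 to 0.229% of these counts in SKOV3 and 0.268 to 0.325% in A2780, and levels are given as CPM, the counts scaled to a common library size with TMM factors over all 18 libraries. SKOV3 libraries had 2278 to 2809 CPM of ERBB2, which this line is known to amplify, against 63.8 to 88.2 CPM in A2780. The summed level of 4 epithelial markers was 1192 to 1673 CPM in SKOV3 and 4.59 to 8.84 CPM in A2780, where KRT8, KRT18 and PAX8 reached at most 1.84, 0.395 and 0.442 CPM and EPCAM had 3 to 7.27 CPM. Of 3 leukocyte markers, PTPRC and CD3E reached at most 0.226 and 0.0566 CPM in any library, and CD68 had 71.2 to 103 CPM in SKOV3 and 3.16 to 5.27 CPM in A2780. Fibroblast markers were present in both lines, with COL1A1 at 297 to 396 CPM in SKOV3 and 16.3 to 22.3 CPM in A2780. DCN and LUM had 58.8 to 92.7 and 41.1 to 53.8 CPM in A2780, and at most 2.77 and 4.29 CPM in SKOV3. The endothelial markers PECAM1 and VWF reached at most 4.61 and 0.106 CPM in any library. In RNA from whole cultures, fewer cells expressing a gene and less of its RNA per cell cannot be told apart.

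In SKOV3 cells the program fell with dose across nearly all of its branches. At 40 mg/L, 30 of 39 members were lower than in DMSO and 5 were higher at an adjusted p below 0.05, where 25.6% of all genes tested were lower and 26.4% were higher. The 5 higher members, INSIG2, EBP, SCAP, LPIN1 and ACSL1, became 2 without DMSO replicate 2 or 40 mg/L replicate 1, and 3 without DMSO replicate 3 or 40 mg/L replicate 2. At 20 mg/L, 25 members were lower and 4 higher, where 4.95% of all genes were lower and 5.16% higher. The 4 became 2 without DMSO replicate 1. The 25 became 18 without DMSO replicate 3, and 22 in a fit of all 18 libraries. The median log2 fold change of the 39 members was -0.25 at 20 mg/L and -0.62 at 40 mg/L, beside medians of 0.00 and 0.01 over all genes. Tests were two-sided quasi-likelihood F tests in edgeR on the counts, with Benjamini-Hochberg adjustment over all genes. The summed level of the members was 2246, 2308 and 2355 CPM with DMSO, 1879, 1915 and 1841 CPM at 20 mg/L, and 1445, 1381 and 1452 CPM at 40 mg/L. The 3 dose groups did not overlap in this sum, which stood at 81.6% of the DMSO mean at 20 mg/L and 61.9% at 40 mg/L.

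**Figure D1:**
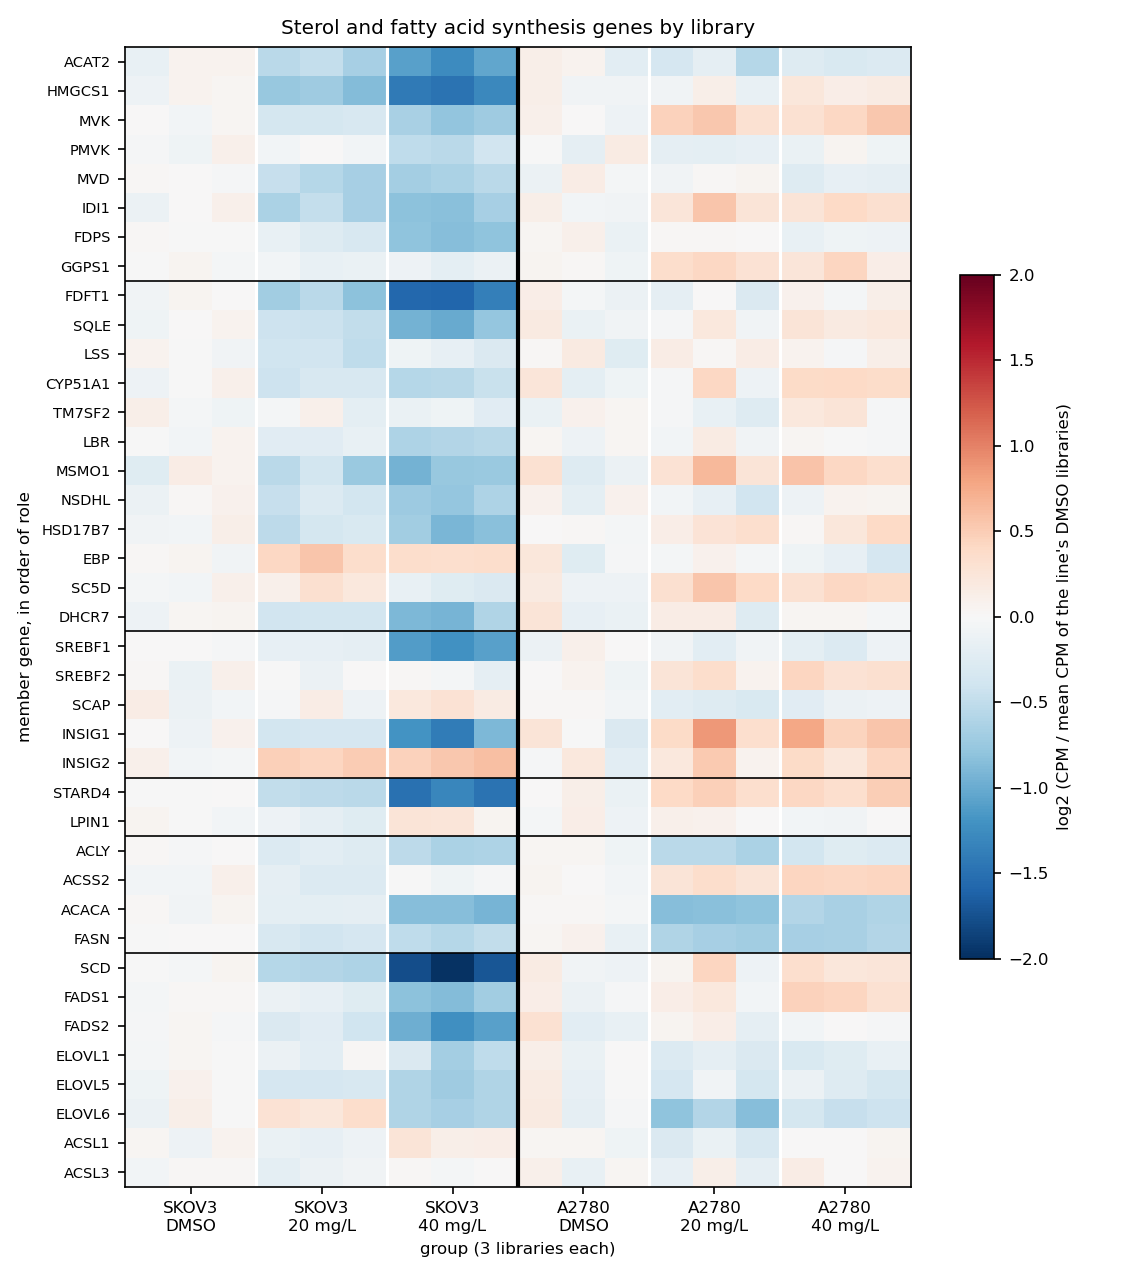
Heatmap of the 39 members (rows, in order of role, with lines between roles) in the 18 libraries (columns, 3 for each line and dose), coloured by the log2 of each library's CPM over the mean CPM of the DMSO libraries of its line. Most SKOV3 rows are blue (lower) at 20 mg/L and a deeper blue at 40 mg/L, while in A2780 the deepest blue is in ACACA, FASN, ACLY and ELOVL6.

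The fall had steps at both doses. In 23 of 39 members, every SKOV3 library at 20 mg/L lay below every DMSO library and every library at 40 mg/L lay below every library at 20 mg/L, an ordering met by 5.73% of all genes tested. No member showed the same ordering upwards in SKOV3, where 4.37% of all genes did. At 40 mg/L compared directly with 20 mg/L, 26 members were lower and 6 higher, where 24.2% of all genes were lower and 23.2% higher. The 6 that were higher were LSS, SCAP, LPIN1, ACSS2, ACSL1 and ACSL3, and 3 were called without 40 mg/L replicate 1.

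The promoters of 4 members that fell strongly in SKOV3, followed by SREBF2, whose level in SKOV3 was not called, and by EBP and INSIG2, which rose there, are shown to let the shared letters be seen. Each window runs from 250 bases before to 50 bases after the start of the gene in RefSeq on GRCh38.p14, and is written in the direction of the gene. Capitals mark CCAAT or, for the other strand, ATTGG, the letters bound by the factor NF-Y, and TCACNCCAC, a form of the sterol regulatory element.
HMGCS1: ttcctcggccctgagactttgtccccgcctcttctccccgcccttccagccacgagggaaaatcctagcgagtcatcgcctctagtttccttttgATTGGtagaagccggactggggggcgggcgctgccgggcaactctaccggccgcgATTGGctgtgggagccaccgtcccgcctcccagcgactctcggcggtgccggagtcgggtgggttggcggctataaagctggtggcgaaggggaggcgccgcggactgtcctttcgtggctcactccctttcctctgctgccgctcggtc
STARD4: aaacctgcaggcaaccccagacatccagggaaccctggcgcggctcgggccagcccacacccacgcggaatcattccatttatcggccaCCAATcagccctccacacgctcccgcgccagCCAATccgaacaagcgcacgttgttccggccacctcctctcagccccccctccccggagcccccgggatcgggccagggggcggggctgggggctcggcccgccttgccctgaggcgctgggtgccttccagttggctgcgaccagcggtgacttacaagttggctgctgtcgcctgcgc
SCD: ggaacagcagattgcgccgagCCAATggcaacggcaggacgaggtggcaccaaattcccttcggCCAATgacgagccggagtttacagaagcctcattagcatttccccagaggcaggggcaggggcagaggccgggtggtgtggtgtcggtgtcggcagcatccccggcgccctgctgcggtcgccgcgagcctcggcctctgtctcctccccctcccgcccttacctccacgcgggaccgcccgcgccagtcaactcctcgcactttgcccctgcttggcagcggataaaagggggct
INSIG1: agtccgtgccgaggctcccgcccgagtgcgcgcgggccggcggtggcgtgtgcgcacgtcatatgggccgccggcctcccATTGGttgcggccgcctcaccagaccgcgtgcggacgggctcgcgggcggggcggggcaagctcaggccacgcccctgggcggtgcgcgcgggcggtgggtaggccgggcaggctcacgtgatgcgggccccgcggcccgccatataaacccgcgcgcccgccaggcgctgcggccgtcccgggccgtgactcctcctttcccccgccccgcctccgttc
SREBF2: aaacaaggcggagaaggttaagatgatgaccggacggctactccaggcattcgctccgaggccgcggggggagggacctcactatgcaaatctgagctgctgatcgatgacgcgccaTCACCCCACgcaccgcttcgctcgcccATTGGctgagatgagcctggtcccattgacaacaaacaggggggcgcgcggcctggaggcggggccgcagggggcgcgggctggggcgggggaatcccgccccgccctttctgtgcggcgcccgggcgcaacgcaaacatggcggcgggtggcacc
EBP: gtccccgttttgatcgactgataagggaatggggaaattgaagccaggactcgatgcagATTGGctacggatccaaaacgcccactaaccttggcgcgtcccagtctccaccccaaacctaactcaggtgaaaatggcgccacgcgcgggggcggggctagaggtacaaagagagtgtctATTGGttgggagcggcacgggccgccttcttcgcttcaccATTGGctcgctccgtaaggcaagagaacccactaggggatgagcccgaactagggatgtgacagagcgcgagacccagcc
INSIG2: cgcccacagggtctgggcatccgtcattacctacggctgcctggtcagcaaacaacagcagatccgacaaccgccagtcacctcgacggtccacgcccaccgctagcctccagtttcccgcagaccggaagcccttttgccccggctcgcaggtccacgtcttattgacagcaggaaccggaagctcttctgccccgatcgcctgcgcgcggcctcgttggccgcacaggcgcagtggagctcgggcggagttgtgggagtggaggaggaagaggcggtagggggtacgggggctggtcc
These windows lie at chr5:43313363-43313662 (minus strand) for HMGCS1, chr5:111512486-111512785 (minus strand) for STARD4, chr10:100346983-100347282 (plus strand) for SCD, chr7:155297628-155297927 (plus strand) for INSIG1, chr22:41832855-41833154 (plus strand) for SREBF2, chrX:48521558-48521857 (plus strand) for EBP and chr2:118088221-118088520 (plus strand) for INSIG2. Windows were at hand for 35 of the 39 members and 27305 genes in all; ACAT2, FDFT1, SQLE and FASN had none.

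Read on both strands, CCAAT was found in 21 of 35 member windows (60%), against 35.7% of windows of all genes. It was about as frequent among members lower in SKOV3 at 40 mg/L, in 16 of 26 windows (61.5%), as among the other members, in 5 of 9 (55.6%). GGGCGG, the GC box bound by Sp1, was found in 30 of 35 member windows (85.7%), against 44.6% of all windows. It was in 21 of 26 windows (80.8%) of members lower in SKOV3 at 40 mg/L and in 9 of 9 (100%) of the others. TCACNCCAC was found in 1 member window (2.86%), that of SREBF2, against 1.15% of all windows. It was the only form of the sterol regulatory element searched for, so windows without it may hold other forms. These counts describe letters within 300 bases and were not compared by a test.

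In the mevalonate pathway, which builds isoprenoid units from acetyl-CoA, 6 of 8 enzymes fell in SKOV3 at 20 mg/L and all 8 at 40 mg/L, where 4.95% and 25.6% of all genes were lower. Their summed level stood at 69.5% of the DMSO mean at 20 mg/L and 50.8% at 40 mg/L. HMGCS1, HMG-CoA synthase, had 231, 260 and 255 CPM with DMSO, 147, 152 and 136 CPM at 20 mg/L, and 92.9, 89.3 and 102 CPM at 40 mg/L. The 3 dose groups were separate, and the log2 fold change at 40 mg/L was -1.39 (SE 0.06, adjusted p = 4.37e-20). ACAT2, the cytosolic thiolase that opens the pathway, had 50.3, 58.3 and 58.3 CPM with DMSO, 38.3, 40.1 and 35.2 CPM at 20 mg/L, and 26.2, 23.2 and 27 CPM at 40 mg/L. It too was lower in every library at each step, with a log2 fold change of -1.12 at 40 mg/L (SE 0.07, adjusted p = 1.16e-15). Log2 fold changes at 40 mg/L were -0.81 for FDPS, farnesyl diphosphate synthase, -0.77 for IDI1, the isopentenyl diphosphate isomerase, -0.70 for the kinase MVK and -0.61 for the decarboxylase MVD. GGPS1, which makes geranylgeranyl diphosphate for protein prenylation, had the smallest log2 fold change, -0.14 (adjusted p = 0.0471), and its call was lost without any single SKOV3 library other than DMSO replicate 3.

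Several of these genes share exonic bases with a neighbour, and the sources used here do not give how such reads were assigned. HMGCS1 lies opposite CTD-2636A23.2 over 15.0% of its exonic length, and that transcript moved with it, by -1.43 on the log2 scale at 40 mg/L in SKOV3. ACAT2 lies opposite SOD2 over 52.3% of its exonic length. SOD2 averaged 295 CPM with DMSO in SKOV3, 453 CPM at 20 mg/L and 343 CPM at 40 mg/L. It was thus higher than with DMSO at both doses in SKOV3, while SOD2 and ACAT2 were both lower at 40 than at 20 mg/L, by -0.39 and -0.57, and in A2780 at 20 mg/L both were lower than with DMSO, by -0.29 and -0.36. FDPS overlaps RUSC1-AS1 and IDI1 overlaps IDI2-AS1, both lower at 40 mg/L, by -0.76 and -0.69; FDPS also has 8 pseudogenes by name.

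Of the 12 enzymes between squalene and cholesterol, 10 fell and 1 rose in SKOV3 at 40 mg/L (25.6% and 26.4% of all genes), and 9 fell and 2 rose at 20 mg/L (4.95% and 5.16% of all genes). FDFT1, squalene synthase, which commits isoprenoids to sterols, had 106, 115 and 112 CPM with DMSO, 68.7, 76 and 63.2 CPM at 20 mg/L, and 37.4, 37 and 43 CPM at 40 mg/L. Its dose groups were separate, with a log2 fold change of -1.50 at 40 mg/L (SE 0.06, adjusted p = 7.51e-20). SQLE, squalene epoxidase, had 66, 69.7 and 73.4 CPM with DMSO, 52.4, 52 and 49.5 CPM at 20 mg/L, and 36.2, 34.7 and 40.7 CPM at 40 mg/L, a log2 fold change of -0.90. Log2 fold changes at 40 mg/L were -0.81 for MSMO1, -0.80 for HSD17B7, -0.80 for DHCR7, -0.70 for NSDHL, -0.58 for LBR and -0.52 for CYP51A1, enzymes that demethylate and reduce the sterol ring after lanosterol. CYP51A1 shares 78.8% of its exonic length with LRRD1 on the same strand, and the deposited values of the pair were nearly alike.

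EBP, the sterol isomerase, was the only one of these enzymes called higher at both doses. It had 18.4, 18.8 and 17.3 CPM with DMSO, 24.1, 26.6 and 23.2 CPM at 20 mg/L, and 23.3, 23 and 23.1 CPM at 40 mg/L. All 6 treated SKOV3 libraries were above the 3 DMSO libraries, with a log2 fold change of 0.36 at 40 mg/L (adjusted p = 7.58e-05). SC5D, the sterol desaturase, was higher at 20 mg/L (0.21) and lower at 40 mg/L (-0.22), both past the threshold, but the call at 20 mg/L was lost without DMSO replicate 1 or 2 or without 20 mg/L replicate 2. LSS, lanosterol synthase, was lower by -0.43 at 20 mg/L and by -0.17 at 40 mg/L, and it was higher at 40 than at 20 mg/L by 0.26 (adjusted p = 0.00105). Its call at 40 mg/L was lost without DMSO replicate 1 or 40 mg/L replicate 3. TM7SF2 was called at neither dose, with log2 fold changes of -0.04 at 20 mg/L (adjusted p = 0.921) and -0.15 at 40 mg/L (adjusted p = 0.431).

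The 5 regulators did not move together in SKOV3. INSIG1, which retains SCAP and is itself a target of SREBPs, had 14.1, 13.1 and 15 CPM with DMSO, 10.9, 11.1 and 11.2 CPM at 20 mg/L, and 6.16, 5.36 and 7.54 CPM at 40 mg/L. Its groups were separate, with a log2 fold change of -1.15 at 40 mg/L (SE 0.10, adjusted p = 1.86e-11). INSIG2, its paralog, had 16.1, 14.5 and 14.6 CPM with DMSO, 20.9, 20.2 and 21.5 CPM at 20 mg/L, and 20.7, 21.9 and 22.9 CPM at 40 mg/L. It went the other way, with a log2 fold change of 0.54 at 40 mg/L (SE 0.07, adjusted p = 1.96e-07) and no overlap between treated and DMSO libraries.

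SREBF1 fell at the higher dose in SKOV3. It had 22.5, 22.5 and 22.1 CPM with DMSO, 20, 20 and 19.8 CPM at 20 mg/L, and 10.3, 9.68 and 10.5 CPM at 40 mg/L. The log2 fold change was -0.17 at 20 mg/L (adjusted p = 0.143) and -1.14 at 40 mg/L (SE 0.07, adjusted p = 9.3e-15). SREBF2, the factor best known for cholesterol genes, had 40.2, 36.2 and 42.2 CPM with DMSO, 39.3, 36.5 and 39.9 CPM at 20 mg/L, and 40.1, 38.4 and 34.8 CPM at 40 mg/L. These groups overlapped, and its log2 fold change at 40 mg/L was -0.06 (SE 0.07, adjusted p = 0.461). SCAP had 12.8, 10.6 and 11.1 CPM with DMSO, 11.3, 12.7 and 10.7 CPM at 20 mg/L, and 13.3, 14.1 and 12.9 CPM at 40 mg/L. It was higher at 40 mg/L by 0.23 (adjusted p = 0.035), a call lost without DMSO replicate 2 (adjusted p = 0.173) or 3 (0.127), without 40 mg/L replicate 1 (0.0591) or 2 (0.12), and in DESeq2 (0.0555).

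**Figure D2:**
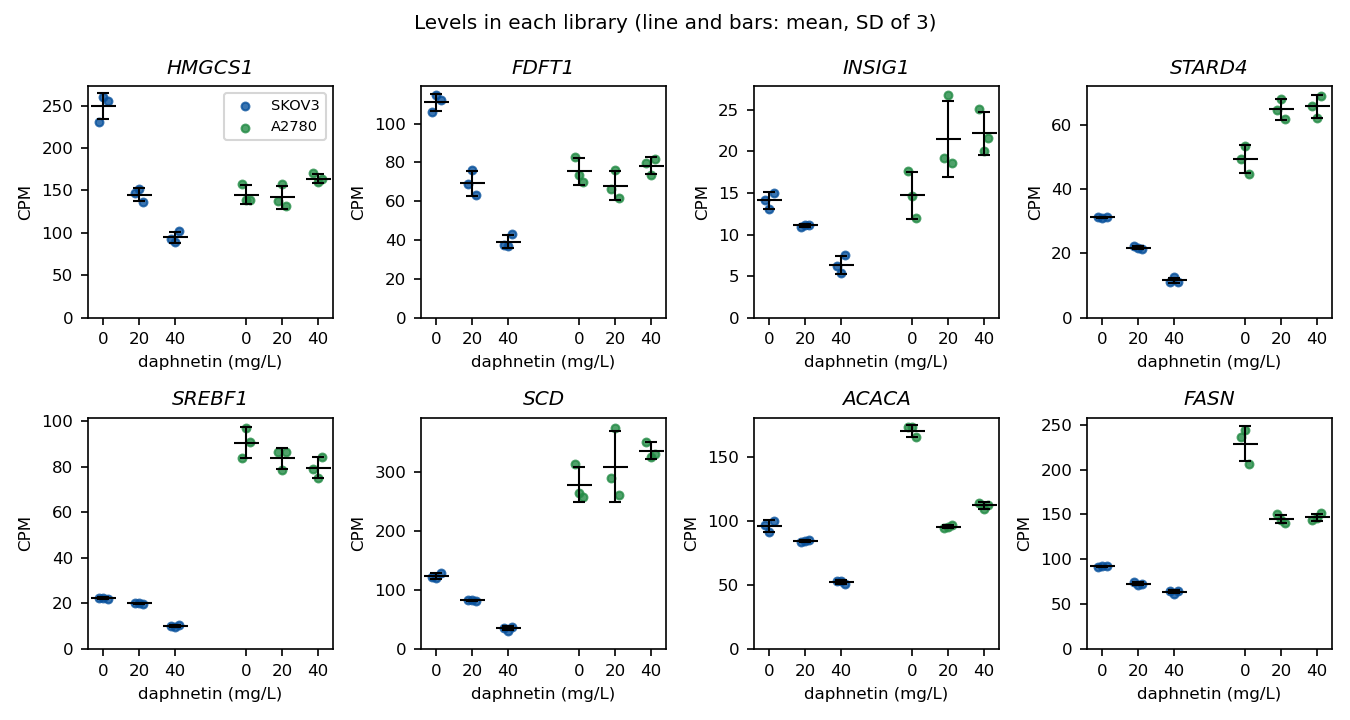
CPM (y axis, starting at 0) of 8 members by daphnetin dose in mg/L (0 is DMSO), with SKOV3 in blue on the left and A2780 in green on the right of each panel, 1 point per library, and black lines for the mean and SD of 3 libraries. In SKOV3 all 8 have their lowest points at 40 mg/L, whereas in A2780 the points of ACACA and FASN fall below DMSO at both doses and those of STARD4 and INSIG1 lie above it.

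STARD4, which carries cholesterol between membranes and is a known SREBP target, had 31.2, 31 and 31.5 CPM with DMSO in SKOV3, 22.2, 21.8 and 21.4 CPM at 20 mg/L, and 11.1, 12.6 and 11.2 CPM at 40 mg/L. Replicates lay close together and the groups were far apart, with a log2 fold change of -1.42 at 40 mg/L (SE 0.07, adjusted p = 7.84e-18). LPIN1, a phosphatidate phosphatase, had a log2 fold change of -0.18 at 20 mg/L (adjusted p = 0.132) and 0.20 at 40 mg/L (adjusted p = 0.0216). The call at 40 mg/L was lost without any 1 of 4 libraries, namely DMSO replicates 2 and 3 and 40 mg/L replicates 1 and 2.

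Fatty acid synthesis fell less than the mevalonate pathway in SKOV3, to a summed level of 83.8% of the DMSO mean at 20 mg/L and 65.7% at 40 mg/L; the difference between these groups of genes was not tested. ACACA, acetyl-CoA carboxylase, had 96.9, 91 and 99.6 CPM with DMSO, 83.4, 84.1 and 85 CPM at 20 mg/L, and 53.2, 53.2 and 50.5 CPM at 40 mg/L. Its log2 fold change was -0.19 at 20 mg/L and -0.87 at 40 mg/L, so most of the fall came between the doses. FASN, fatty acid synthase, had 91.5, 92.3 and 92.8 CPM with DMSO, 74.2, 70.9 and 72.8 CPM at 20 mg/L, and 64.9, 61.9 and 65.2 CPM at 40 mg/L, with a log2 fold change of -0.52 at 40 mg/L. ACLY, which makes cytosolic acetyl-CoA from citrate, was lower by -0.59 at 40 mg/L, whereas ACSS2, which makes it from acetate, had a log2 fold change of -0.03 (adjusted p = 0.763).

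SCD, the stearoyl-CoA desaturase that makes monounsaturated fatty acids, fell the most of all members in SKOV3. It had 123, 121 and 129 CPM with DMSO, 83.8, 82.8 and 80.9 CPM at 20 mg/L, and 36.4, 31.5 and 37.9 CPM at 40 mg/L. The groups were separate, with a log2 fold change of -1.81 at 40 mg/L (SE 0.06, adjusted p = 5.14e-23). FADS2, which with FADS1 desaturates polyunsaturated fatty acids, had 39, 40.9 and 38.9 CPM with DMSO, 32.5, 33.7 and 30.2 CPM at 20 mg/L, and 20.2, 17 and 18.7 CPM at 40 mg/L, or -1.08 on the log2 scale (SE 0.07, adjusted p = 2.73e-15). FADS1 had 269, 282 and 282 CPM with DMSO, 255, 249 and 235 CPM at 20 mg/L, and 157, 152 and 171 CPM at 40 mg/L, a log2 fold change of -0.79. Both desaturases showed their larger step between 20 and 40 mg/L.

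Among the elongases, ELOVL5 and ELOVL1 were lower in SKOV3 at 40 mg/L by -0.63 and -0.48. ELOVL6, which lengthens saturated chains made by FASN, had 11.9, 14 and 12.8 CPM with DMSO, 15.7, 15.1 and 16.4 CPM at 20 mg/L, and 8.51, 8.14 and 8.51 CPM at 40 mg/L. It was thus highest at the middle dose, with log2 fold changes of 0.28 at 20 mg/L (adjusted p = 0.0258) and -0.62 at 40 mg/L (adjusted p = 4.41e-07); the call at 20 mg/L was lost without DMSO replicate 1 or 3 or without 20 mg/L replicate 1 or 3. The acyl-CoA synthetases stood apart from the rest, with log2 fold changes at 40 mg/L of 0.18 for ACSL1 (adjusted p = 0.0137), lost without DMSO replicate 2 or 40 mg/L replicate 1, and 0.00 for ACSL3 (adjusted p = 0.984). Across the same SKOV3 groups the summed level of the epithelial markers was 1659 to 1673 CPM with DMSO, 1336 to 1425 CPM at 20 mg/L and 1192 to 1226 CPM at 40 mg/L, and that of the leukocyte markers, nearly all of it CD68, was 71.5 to 78.9, 82.8 to 89.7 and 86.3 to 103 CPM. The part of either in these results was not tested.

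**Figure D3:**
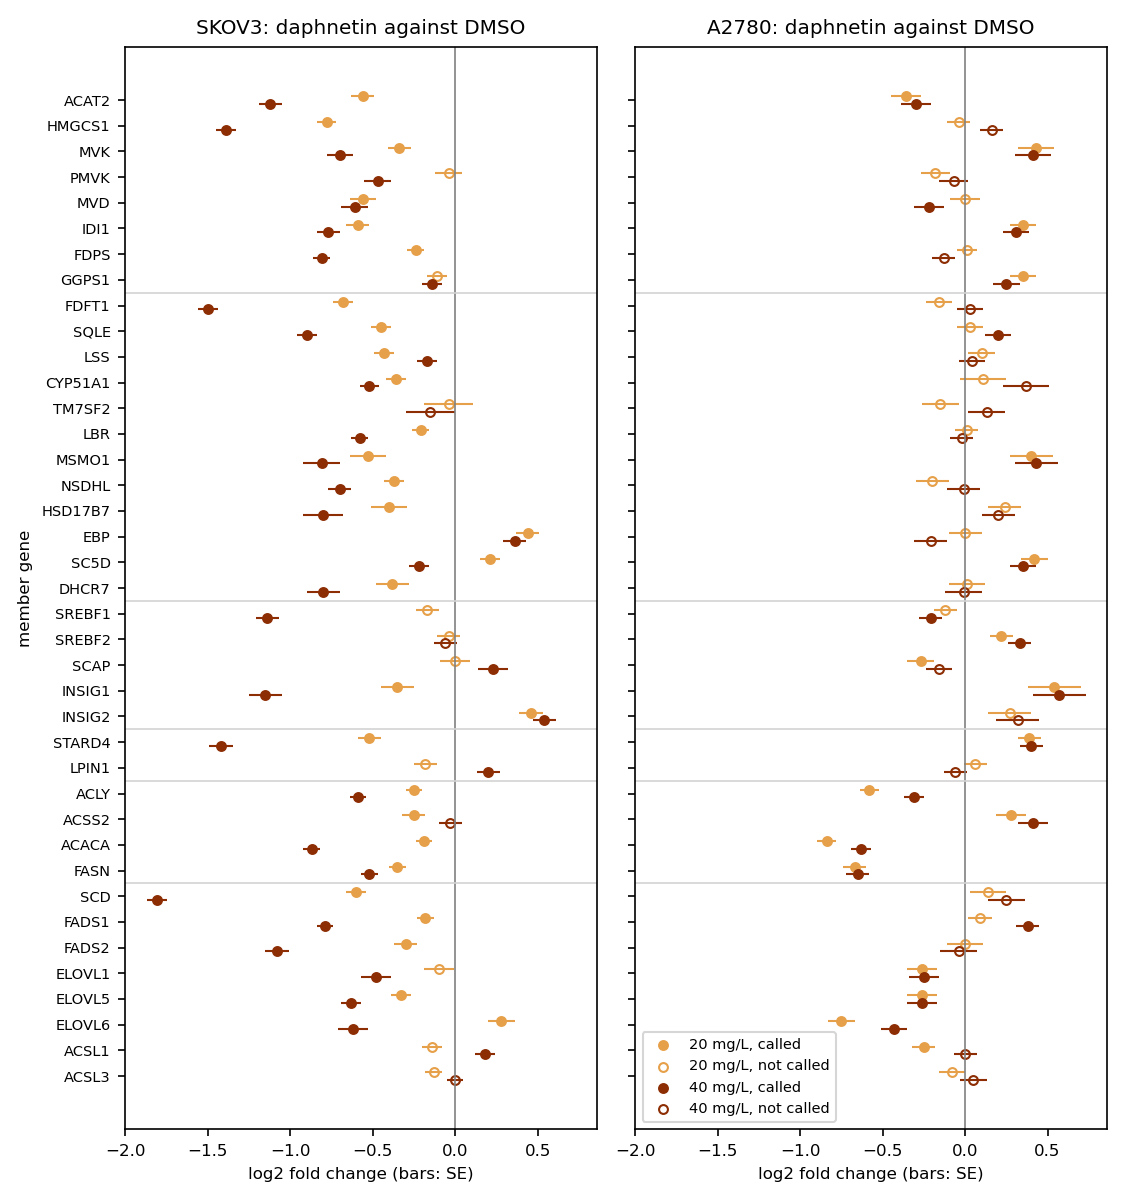
Log2 fold change against DMSO (x axis, bars of 1 SE) of each member (rows, by role) at 20 and 40 mg/L in SKOV3 (left) and A2780 (right), with filled points where the adjusted p was below 0.05. SKOV3 points lie mostly left of 0 and reach -1.81 for SCD, while A2780 points lie on both sides between -0.84 and 0.57.

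In A2780 cells members were called in both directions, with a median change near that over all genes. At 40 mg/L their changes spanned a narrower range than in SKOV3. At 40 mg/L, 11 of 39 members were higher and 9 lower than in DMSO, where 17.7% of all genes tested were higher and 19.2% lower; the 9 became 5 without 40 mg/L replicate 2. At 20 mg/L, 9 members were higher and 9 lower, where 18% of all genes were higher and 18.9% lower. These shares, and the lower share at 40 mg/L, were not far from those over all genes. The median log2 fold change of the members was 0.01 at 20 mg/L and 0.03 at 40 mg/L, beside 0.01 and -0.01 over all genes. The summed level was 3165, 2920 and 2839 CPM with DMSO, 2769, 3057 and 2624 CPM at 20 mg/L, and 3076, 2999 and 3007 CPM at 40 mg/L, and the groups overlapped.

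The members with the furthest falls in A2780 made and elongated fatty acids. FASN had 236, 244 and 206 CPM with DMSO, 150, 144 and 141 CPM at 20 mg/L, and 144, 146 and 152 CPM at 40 mg/L, so that both doses lay below DMSO at about the same level. Its log2 fold change was -0.67 at 20 mg/L and -0.65 at 40 mg/L (SE 0.07, adjusted p = 4.48e-09). ACACA had 173, 173 and 165 CPM with DMSO, 94.3, 95 and 97 CPM at 20 mg/L, and 114, 109 and 112 CPM at 40 mg/L. Its log2 fold change was -0.84 at 20 mg/L and -0.63 at 40 mg/L (SE 0.06, adjusted p = 2.07e-09), the lower dose giving the lower level. ELOVL6 had 116, 90.6 and 101 CPM with DMSO, 58.6, 68 and 56.8 CPM at 20 mg/L, and 80.1, 74.8 and 76.9 CPM at 40 mg/L, with log2 fold changes of -0.75 and -0.43 (adjusted p = 9.04e-05 at 40 mg/L). It had the same shape as ACACA, with no overlap between doses. ACLY was lower by -0.58 at 20 mg/L and by -0.31 at 40 mg/L. Set directly against 20 mg/L, 40 mg/L gave 5 higher members, ACLY, ACACA, FADS1, ELOVL6 and ACSL1, and 0 lower, where 6.71% of all genes were higher and 7.85% lower; 3 members were lower at an unadjusted p below 0.05, and DESeq2 called 0. The 5 became 3 without 20 mg/L replicate 1 or 3 and 11 without replicate 2.

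ACSS2 was the member of fatty acid synthesis that rose in A2780. It had 15.5, 14.9 and 14.3 CPM with DMSO, 17.9, 19 and 17.9 CPM at 20 mg/L, and 20, 19.9 and 20.1 CPM at 40 mg/L, with a log2 fold change of 0.41 at 40 mg/L (SE 0.09, adjusted p = 0.00033). It was the 1 member of 39 whose A2780 libraries all lay higher at each dose step, an ordering met by 2.67% of all genes; 0 members lay lower at each step, where 2.03% of all genes did.

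Sterol genes in A2780 held both higher and lower calls, and those with the largest changes were higher. STARD4 had 49.3, 53.6 and 44.9 CPM with DMSO, 64.6, 68.2 and 61.9 CPM at 20 mg/L, and 66, 62.2 and 69.1 CPM at 40 mg/L, a log2 fold change of 0.40 at 40 mg/L (SE 0.07, adjusted p = 5.14e-05). MVK, mevalonate kinase, had 8.95, 8.41 and 7.77 CPM with DMSO, 11.5, 12.2 and 10.3 CPM at 20 mg/L, and 10.4, 11.2 and 12.2 CPM at 40 mg/L, or 0.41 on the log2 scale (SE 0.11, adjusted p = 0.00334). In both genes all treated libraries were above all DMSO libraries, with the doses at about the same level. MSMO1, the sterol monooxygenase, had 13.3, 9.04 and 9.94 CPM with DMSO, 13.1, 16.8 and 12.8 CPM at 20 mg/L, and 15.9, 14.4 and 13.6 CPM at 40 mg/L, a log2 fold change of 0.43 at 40 mg/L (SE 0.13, adjusted p = 0.00955). DMSO replicate 1 overlapped the lower dose, and the call at 40 mg/L did not survive the loss of DMSO replicate 2 (adjusted p = 0.0545) or 40 mg/L replicate 1 (0.0565). In all, 3 of 8 mevalonate enzymes (MVK, IDI1 and GGPS1) were higher and 2 (ACAT2 and MVD) lower, and 3 of 12 later enzymes (SQLE, MSMO1 and SC5D) were higher at 40 mg/L, where 17.7% of all genes were higher and 19.2% lower. Of the higher calls, that for GGPS1 was lost without 40 mg/L replicate 2. The calls for SQLE (adjusted p = 0.0454) and MVD (0.0463) lay near the threshold. That for SQLE was lost without DMSO replicate 2 or 3 or any 1 library at 40 mg/L, and that for MVD in all but 3 of the alternatives tried.

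INSIG1 had 17.6, 14.6 and 12 CPM with DMSO in A2780, 19.2, 26.8 and 18.6 CPM at 20 mg/L, and 25.1, 20 and 21.6 CPM at 40 mg/L. Treated libraries all lay above DMSO, with a log2 fold change of 0.57 at 40 mg/L (SE 0.16, adjusted p = 0.0137), a call lost without DMSO replicate 2 (adjusted p = 0.0599) or 40 mg/L replicate 1 (0.0537). The highest values, 26.8 and 25.1 CPM, came from the 2 A2780 libraries with the lowest mitochondrial share of counts, and without both libraries the log2 fold changes were 0.35 at 20 mg/L (adjusted p = 0.018) and 0.47 at 40 mg/L (adjusted p = 0.00154). SREBF2 had 69.1, 72.4 and 64.3 CPM with DMSO, 82.1, 87.9 and 72 CPM at 20 mg/L, and 92.2, 83.8 and 85.5 CPM at 40 mg/L, a log2 fold change of 0.33 at 40 mg/L (SE 0.07, adjusted p = 5.99e-04). SREBF1 had 83.7, 97 and 90.9 CPM with DMSO, 86.3, 78.4 and 86.4 CPM at 20 mg/L, and 79, 75.2 and 84.3 CPM at 40 mg/L, a log2 fold change of -0.21 at 40 mg/L (adjusted p = 0.0193). The SREBF1 groups overlapped, and its call ended on leaving out DMSO replicate 2 (adjusted p = 0.16) or 3 (0.0727) or 40 mg/L replicate 2 (0.114). SCAP had 24.3, 24.2 and 22.9 CPM with DMSO, 20.5, 19.8 and 19.2 CPM at 20 mg/L, and 20.4, 22 and 22.2 CPM at 40 mg/L, with log2 fold changes of -0.27 at 20 mg/L (adjusted p = 0.00791) and -0.16 at 40 mg/L (adjusted p = 0.109). INSIG2 had 6.04, 7.08 and 5.33 CPM with DMSO, 7.13, 8.82 and 6.44 CPM at 20 mg/L, and 7.98, 7.18 and 8.24 CPM at 40 mg/L, and its log2 fold change at 40 mg/L was 0.32 (adjusted p = 0.0614).

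The difference between the lines in their response was tested by the interaction of line and dose in 1 fit of all 18 libraries. At 40 mg/L, 28 of 39 members had a lower fold change in SKOV3 than in A2780 and 2, EBP and SCAP, a higher one, where 15.7% of all genes tested were lower and 14.3% higher. The call for SCAP (0.37, adjusted p = 0.0177) was lost without SKOV3 DMSO replicate 2 (adjusted p = 0.114) or 3 (0.0525) or 40 mg/L replicate 2 (0.0787), leaving EBP alone. At 20 mg/L the counts were 17 lower and 5 higher, where 10.6% of all genes were lower and 11.0% higher. The median difference over the members was -0.26 at 20 mg/L and -0.59 at 40 mg/L on the log2 scale, beside -0.01 and 0.00 over all genes. The medium and the serum share differed between the lines per the labels, so line and medium cannot be told apart in these differences.

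**Figure D4:**
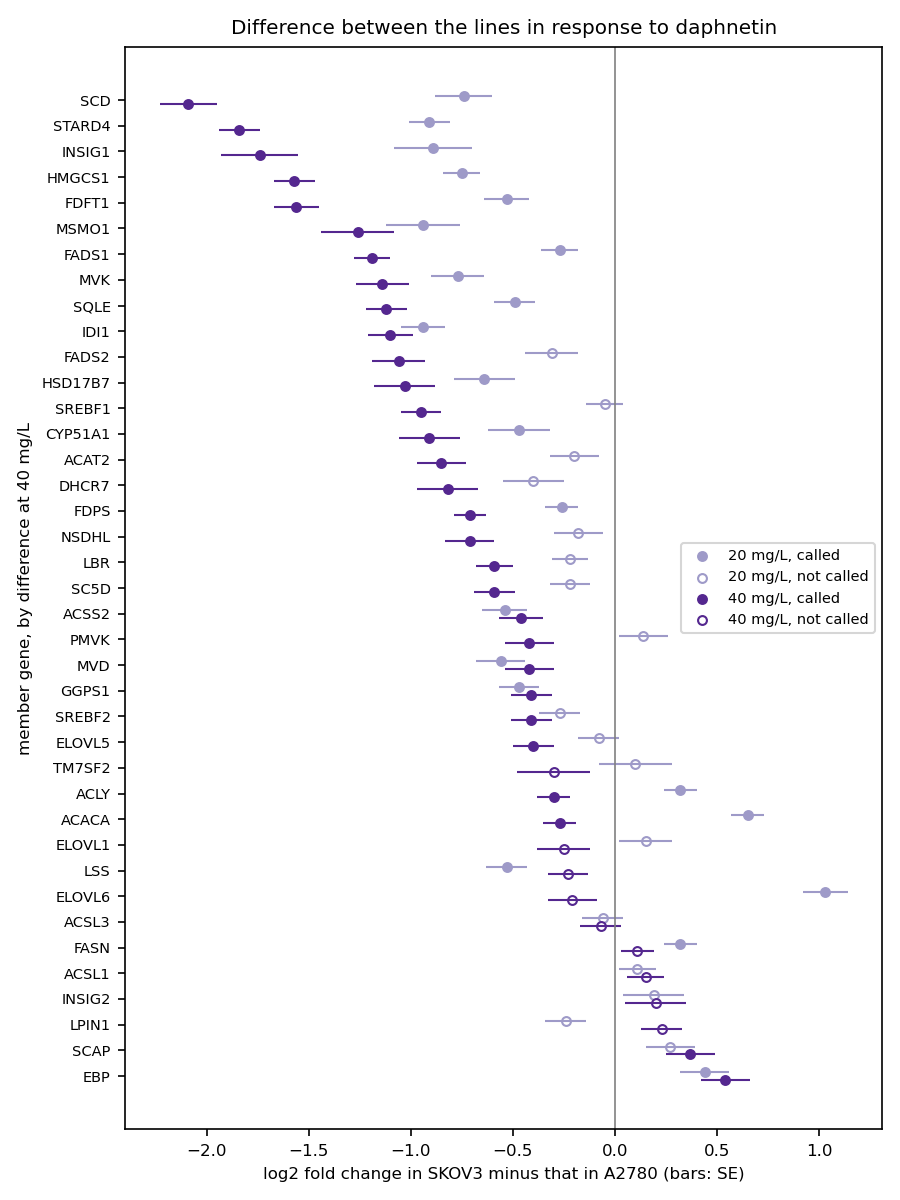
Log2 fold change in SKOV3 minus that in A2780 (x axis, bars of 1 SE) for each member (rows, sorted by the value at 40 mg/L) at 20 mg/L (light) and 40 mg/L (dark), filled where the adjusted p of the interaction was below 0.05. Values at 40 mg/L run between -2.09 for SCD and 0.54 for EBP.

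STARD4 had the smallest p of the members in this test, with a difference of -1.84 (SE 0.10, adjusted p = 6.23e-18), as it fell in SKOV3 and rose in A2780. HMGCS1 differed by -1.57 (SE 0.10, adjusted p = 1.75e-16). In A2780 HMGCS1 had 158, 139 and 139 CPM with DMSO, 138, 158 and 131 CPM at 20 mg/L, and 170, 160 and 163 CPM at 40 mg/L, and its log2 fold change of 0.16 at 40 mg/L was not called (adjusted p = 0.0761). FDFT1 differed by -1.56 (SE 0.11, adjusted p = 1.23e-14), with overlapping A2780 values of 83, 73.5 and 69.7 CPM with DMSO, 66.4, 76.2 and 61.6 CPM at 20 mg/L, and 79.7, 73.3 and 81.7 CPM at 40 mg/L. FADS1 differed by -1.19 (SE 0.09, adjusted p = 3.96e-13), with A2780 values of 337, 284 and 303 CPM with DMSO, 337, 358 and 295 CPM at 20 mg/L, and 422, 413 and 381 CPM at 40 mg/L. SQLE differed by -1.12 (SE 0.10, adjusted p = 2.29e-11), with A2780 values of 78.2, 63 and 65.7 CPM with DMSO, 68.2, 79.4 and 65.7 CPM at 20 mg/L, and 82.6, 78 and 80 CPM at 40 mg/L. FADS1 therefore fell in SKOV3 and rose in A2780 at 40 mg/L, and the A2780 call for SQLE was the near-threshold one given above.

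The widest difference at 40 mg/L was that of SCD, at -2.09 (SE 0.14, adjusted p = 9.33e-11). SCD had 314, 265 and 259 CPM with DMSO in A2780, 291, 376 and 261 CPM at 20 mg/L, and 352, 326 and 332 CPM at 40 mg/L, and its log2 fold change of 0.25 at 40 mg/L was not called (adjusted p = 0.103). That change was called without the filter on low counts (adjusted p = 6.14e-04) and in the fit of all 18 libraries (0.0341), but not in DESeq2. INSIG1 differed by -1.74 (SE 0.19, adjusted p = 4.23e-08). At 20 mg/L the difference ran the other way for ELOVL6, at 1.03, which rose in SKOV3 and fell in A2780, and for ACACA, at 0.65, which fell further in A2780.

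Of the 30 members lower in SKOV3 at 40 mg/L, 9 were higher in A2780, 9 were lower and 12 were not called there. Among those 12, some alternative fits called HMGCS1, CYP51A1, HSD17B7 and SCD higher in A2780, and FDPS lower. The 9 in opposite directions were MVK, IDI1, GGPS1, SQLE, MSMO1, SC5D, INSIG1, STARD4 and FADS1, making up 30% of the members lower in SKOV3 and 81.8% of the 11 higher in A2780; of all genes tested in both lines, the same class made up 11.3% of those lower in SKOV3 and 14.7% of those higher in A2780. The 9 lower in both lines were ACAT2, MVD, SREBF1, ACLY, ACACA, FASN, ELOVL1, ELOVL5 and ELOVL6, making up 30% of the members lower in SKOV3 and 100% of those lower in A2780, against 34.8% and 42.8% for all genes. Since 30 of the 39 members were lower in SKOV3, most members of any A2780 list fall in that set. Leaving out 1 library ended the A2780 call for GGPS1, SQLE, MSMO1 and INSIG1 of the opposite 9, and for ACAT2, MVD, SREBF1, ELOVL1 and ELOVL5 of the shared 9. At 20 mg/L, 6 members were lower in SKOV3 and higher in A2780, or 24% of those lower in SKOV3, against 12.6% for all genes. The 5 lower in both lines made up 20%, against 42.9% for all genes. Of the 4 higher in SKOV3, SC5D was higher in A2780 too and ELOVL6 was lower there. Each made up 25% of the 4, against 34.5% and 16.3% for all genes.

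Without daphnetin the lines differed in most members, as they did in most of all genes tested. The medium and the serum share differed as well, so line and medium cannot be told apart in this comparison. In DMSO, 11 of 39 members were higher in SKOV3 than in A2780 and 23 lower, where 41.2% of all genes tested were higher and 37.2% lower. ELOVL6 differed most, at a log2 ratio of -2.99 (SE 0.08, adjusted p = 7.5e-31), and SREBF1 next, at -2.02 (SE 0.07, adjusted p = 7.07e-28). TM7SF2, a sterol reductase, had 3.49, 3.13 and 3.04 CPM in SKOV3, against 10.3, 12 and 11.6 CPM in A2780, a log2 ratio of -1.81. LPIN1 had 21.7, 20.8 and 20.2 CPM in SKOV3, against 55.3, 62.8 and 53 CPM in A2780, a log2 ratio of -1.45. NSDHL, a dehydrogenase of sterol demethylation, was the reverse, with 40.6, 44.6 and 46.3 CPM in SKOV3, against 17.7, 14.6 and 17.6 CPM in A2780, a log2 ratio of 1.40.

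**Figure D5:**
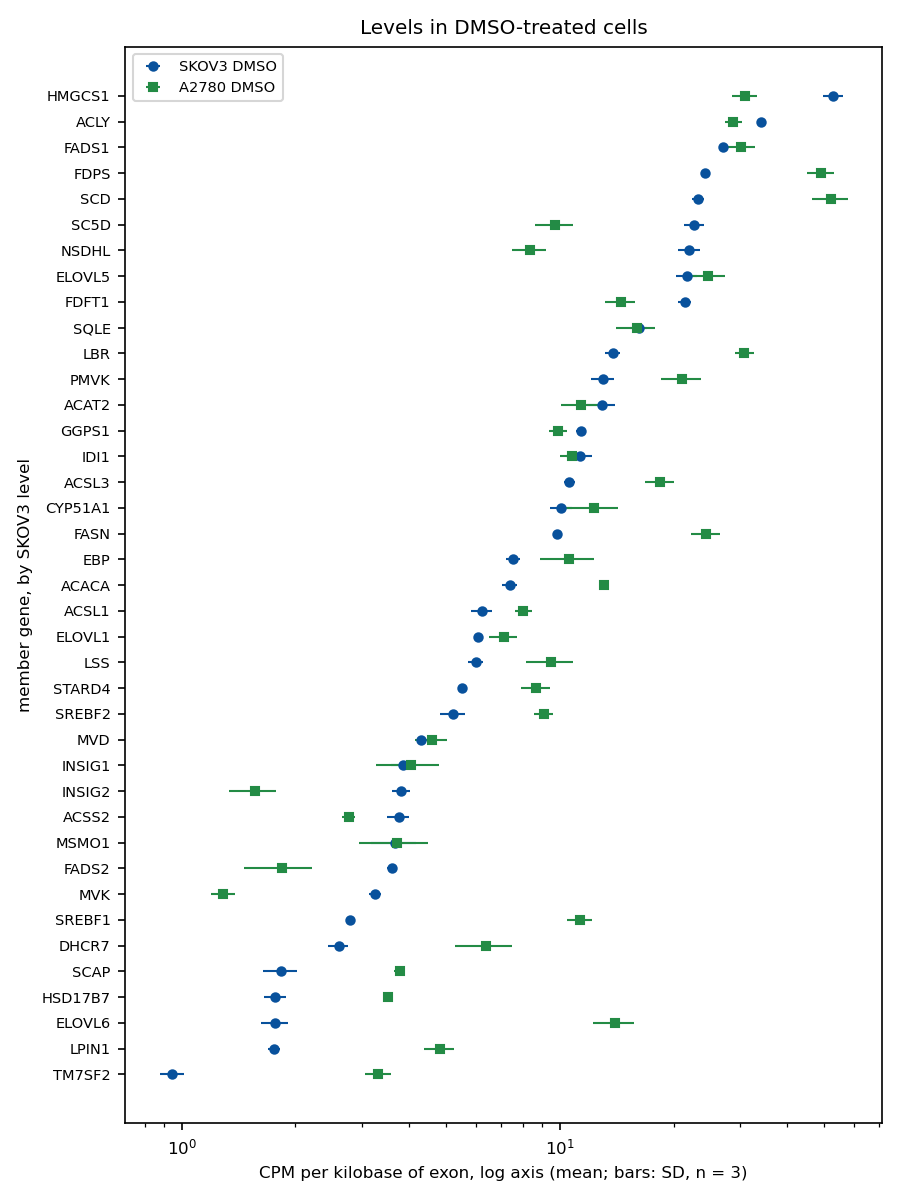
Mean level in CPM per kilobase of exon (x axis, log scale, bars of SD, n = 3) of each member (rows, sorted by the SKOV3 level) in DMSO libraries of SKOV3 (circles) and A2780 (squares). HMGCS1 is highest in SKOV3 at 52.9 and SCD highest in A2780 at 52.1 CPM per kilobase.

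Per kilobase of exon, the member at the highest level in SKOV3 DMSO was HMGCS1, at 52.9 ± 3.25 CPM per kb (SD, n = 3), followed by ACLY at 34 ± 0.593 and FADS1 at 27.1 ± 0.773. In A2780 DMSO it was SCD at 52.1 ± 5.61 CPM per kb, with FDPS at 49.1 ± 4.06, which is within the spread of SCD, and then HMGCS1 at 30.9 ± 2.29 (SD, n = 3 each). TM7SF2 was the lowest member in SKOV3 at 0.945 CPM per kb and MVK the lowest in A2780 at 1.29 CPM per kb. Ranked by CPM without length, HMGCS1 and SCD each came second in those lines.

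Genes of 6 neighbouring pathways were listed by name as well, and each list is given by its counts at 40 mg/L, where 26.4% of all genes were higher and 25.6% lower in SKOV3, and 17.7% higher and 19.2% lower in A2780. Of 10 genes that cleave SREBPs or degrade sterol regulators in the endoplasmic reticulum, 8 were higher in SKOV3 at 40 mg/L, and 6 were higher and 1 lower in A2780. The largest of these were UFD1L, a cofactor of protein extraction from the membrane, with log2 fold changes of 0.82 in SKOV3 and 0.82 in A2780, and RNF139, a ubiquitin ligase of the endoplasmic reticulum, with 0.53 and 0.51. Of 9 genes of sterol export, storage and liver X receptor response, 6 were higher and 1 lower in SKOV3, led by MYLIP at 0.73 and the cholesterol exporter ABCA1 at 0.69; in A2780, 2 were higher, MYLIP at 0.68 and STARD3 at 0.28.

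Of 11 genes in the isoprenoid branches, 6 were higher and 1 lower in SKOV3 at 40 mg/L, led by the prenyltransferase subunits RABGGTB at 0.80 and PGGT1B at 0.69. In A2780, 2 were higher and 2 lower, and the largest were PDSS1 at -0.64 and NUS1 at -0.26. Among other acyl chain enzymes, 4 of 11 were higher and 7 lower in SKOV3, led by ACSL5 at -1.36 and ELOVL2 at -1.26, and 3 of 12 were higher and 2 lower in A2780, with ACSL6 at 0.86 and ELOVL7 at 0.67. Of 12 glycerolipid genes, 4 were higher and 2 lower in SKOV3, with DGAT1, which forms triglycerides, at 0.69 and PLIN3 at -0.62, and 3 were higher and 1 lower in A2780, with LPIN2 at 0.56 and the lipid droplet protein PLIN2 at -1.69. PLIN2 was scarce, at 0.0946, 0.285 and 0.168 CPM at 40 mg/L against 0.571, 0.623 and 0.593 CPM in DMSO. Of 11 genes of fatty acid oxidation, 3 were higher and 0 lower in SKOV3, with ACACB at 0.42 and MLYCD at 0.31. In A2780, 2 were higher and 0 lower, SLC25A20 at 0.70 and CPT1A at 0.39. The higher shares of this list lay near those over all genes, and the lower shares below them. The isoprenoid counts in A2780 lay near the shares over all genes in both directions, and in lists this short 1 gene moves a share widely.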

How the data were processed

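RNA was measured in 18 libraries of 2 cell lines, 3 per group. The deposited table holds whole-number counts per gene, made by the authors; reads were trimmed with Trimmomatic 0.36 and the genome build was GRCh38, per the submitters' processing notes, and the library kit for mRNA kept strand, per the labels' protocols. For the aligner, counter, annotation and strand option the entry is "not given in the sources used here". Values of 2 outnumber values of 1 (59913 against 14622), and whether both mates of a fragment were counted is not stated. Of the identifiers, 28 had been turned into dates and match no member.

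Counts were filtered with filterByExpr, scaled by TMM and fitted with edgeR 4.0.16 (quasi-likelihood, robust, R 4.3.3), per line for doses (21936 genes in SKOV3 and 20593 in A2780, 9 libraries each) and over all 18 libraries for the interaction and the DMSO comparison (23742 genes). P-values were two-sided and adjusted by Benjamini-Hochberg over all genes, with calls below 0.05. SE is the log2 fold change divided by the square root of F. Doses in a line share their DMSO libraries. The fit was also run on counts simulated with known changes and the same spread for every gene. That setting is simpler than these data, so no result here rests on it. Alternatives were DESeq2 1.42.0, RLE scaling, no filter, mitochondrial genes left out, a replicate block, a joint fit, and each library left out; leaving out the 2 A2780 libraries of lowest mitochondrial share was chosen after seeing the data.

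No libraries of a group were alike within counting noise (chi-square per degree of freedom 5.03 to 34.69), so none was treated as a library deposited in duplicate; separate cultures are not shown by it, since library preparation and counting of both mates would also raise the statistic. Same-numbered libraries correlated at no more than 0.096, so replicate numbers were not used as pairs in the main fits.

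Members and lists were chosen with earlier results of these data known. Per line, the 8 members with the largest called fold change at 40 mg/L and no overlap with DMSO were named with full values, as were the regulators, the 5 with the smallest p in the line difference at 40 mg/L, the 5 with the largest DMSO ratio, and the 2 largest called genes of each other list. Full values of SQLE, FADS1, ACACA, FASN, ELOVL6, EBP and SCD in other comparisons were added after values were seen.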

Additional observations from a re-analysis of the deposited data

Results flagged for a closer look

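The responses of the lines differed, by the interaction of line and dose in edgeR's quasi-likelihood test at an adjusted p below 0.05, for 22 members at 20 mg/L, 17 lower and 5 higher in SKOV3, and 30 at 40 mg/L, 28 lower and 2 higher. Of all genes, 10.6% were lower and 11.0% higher at 20 mg/L, and 15.7% lower and 14.3% higher at 40 mg/L. Each value below is the log2 fold change in SKOV3 minus that in A2780, both against DMSO of the same line; the lines were grown in different media.

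At 20 mg/L, the mevalonate enzymes differed by -0.94 for IDI1, -0.77 for MVK, -0.75 for HMGCS1, -0.56 for MVD, -0.47 for GGPS1 and -0.26 for FDPS. Among later sterol enzymes the difference was -0.94 for MSMO1, -0.64 for HSD17B7, -0.53 for FDFT1, -0.53 for LSS, -0.49 for SQLE, -0.47 for CYP51A1 and 0.44 for EBP. INSIG1 differed by -0.89 and STARD4 by -0.91. Among fatty acid genes it was -0.74 for SCD, -0.54 for ACSS2, -0.27 for FADS1, 0.32 for ACLY, 0.32 for FASN, 0.65 for ACACA and 1.03 for ELOVL6, so that the positive differences lay in EBP and in genes of fatty acid synthesis and elongation. Some of these calls rested on single libraries. That for CYP51A1 was lost on leaving out any 1 of 9 libraries and came to -0.29 without A2780 20 mg/L replicate 2, that for FADS1 on leaving out any 1 of 7, that for FDPS without A2780 DMSO replicate 3 or SKOV3 20 mg/L replicate 3, and that for EBP without A2780 DMSO replicate 1, where it was 0.31.

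At 40 mg/L, the mevalonate enzymes differed by -1.57 for HMGCS1, -1.14 for MVK, -1.10 for IDI1, -0.85 for ACAT2, -0.71 for FDPS, -0.42 for PMVK, -0.42 for MVD and -0.41 for GGPS1. Among later sterol enzymes the difference was -1.56 for FDFT1, -1.26 for MSMO1, -1.12 for SQLE, -1.03 for HSD17B7, -0.91 for CYP51A1, -0.82 for DHCR7, -0.71 for NSDHL, -0.59 for LBR, -0.59 for SC5D and 0.54 for EBP. Of the regulators, INSIG1 differed by -1.74, SREBF1 by -0.95, SREBF2 by -0.41 and SCAP by 0.37 (lost without SKOV3 DMSO replicate 2 or 3 or 40 mg/L replicate 2), and the sterol carrier STARD4 by -1.84. Among fatty acid genes it was -2.09 for SCD, -1.19 for FADS1, -1.06 for FADS2, -0.46 for ACSS2, -0.40 for ELOVL5, -0.30 for ACLY and -0.27 for ACACA. The difference for ACACA and ACLY thus had opposite signs at 20 and 40 mg/L, both past the threshold. No group held enough libraries for an outlier test.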

How the results depend on the processing

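Of 225 called values of members over 9 comparisons, 217 remained called in DESeq2, 222 with RLE size factors, 216 with no filter and 223 without mitochondrial genes; none changed direction, and leaving out 1 library ended 47 of them in at least 1 fit. With no filter, 1 member instead of 2 had a higher response in SKOV3 than in A2780 at 40 mg/L. HMGCS1 in SKOV3 and SCD in A2780 came at rank 2 by CPM without length. Leaving out 1 library gave 5 to 9 members lower in A2780 at 40 mg/L (9 with all), 3 to 11 higher in A2780 at 40 against 20 mg/L (5 with all), 2 to 4 higher in SKOV3 at 20 mg/L (4 with all), 2 to 5 higher in SKOV3 at 40 mg/L (5 with all), 3 to 6 higher in SKOV3 at 40 against 20 mg/L (6 with all), and 1 to 3 with a higher response in SKOV3 at 40 mg/L (2 with all). Members lower in SKOV3 numbered 28 to 30 at 40 mg/L and 18 to 25 at 20 mg/L (25 with all) in those fits. Those higher in A2780 at 40 mg/L numbered 9 to 14 (11 with all), and 15 in the joint fit. The causes of these shifts were not tested.

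Same-numbered libraries correlated at -0.128 to 0.05 in A2780 and -0.061 to 0.096 in SKOV3, none over 0.1. Other pairs correlated at -0.17 to 0.154 in A2780 and -0.088 to 0.071 in SKOV3. In SKOV3 the median was 0.071 for same-numbered pairs and -0.014 for other pairs. Whether same-numbered SKOV3 libraries shared more than a number was not tested. With the replicate block, 221 of the 225 calls remained. Members lower in SKOV3 stayed at 30 in number at 40 mg/L, 27 against 26 were lower at 40 than at 20 mg/L, and 19 against 17 had a lower response in SKOV3 at 20 mg/L.

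With 3 libraries a group, members with small fold changes near the threshold, such as MVD and SQLE in A2780 and GGPS1 in SKOV3, cannot be placed firmly on either side of it. Where a member overlaps another gene, as for ACAT2, HMGCS1, FDPS, IDI1 and CYP51A1, the reads of each cannot be told apart.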
